A study of Mus musculus with 6 samples.

Results

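The genes described here are those of the unfolded protein response of the endoplasmic reticulum (ER) and of the integrated stress response, in neutrophils from mouse bone marrow. The members were chosen by name, as the entries of the deposited expression table whose symbol was on a list of 37 genes, and 36 of these were found among the 52636 genes in the table. The listed symbol Selk was not in the table; the gene stood there under its later name Selenok and was not counted as a member. The series held 6 RNA libraries, 3 labelled WT and 3 labelled LRP5-KO, from C57BL/6N mice aged 10 weeks. The WT label did not say whether those mice carried floxed alleles or Cre, and the LRP5-KO mice had the genotype LRP5f/f/Lyz2Cre+, in which floxed Lrp5 alleles were to be removed by a Cre recombinase made from Lyz2, a gene of the myeloid lineage and so not of neutrophils alone. No agent or injury was named for either group. The labels gave a Percoll density gradient for the isolation of the cells, while the methods gave a sort on CD11b and Ly6G, and nothing stated whether a library came from a single animal, so p-values here measure the spread between these libraries, which may be technical.

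Proteins that enter the ER to be secreted, stored in granules or placed in membranes are folded there by chaperones, and unfolded protein is detected by the sensors PERK (Eif2ak3), IRE1 (Ern1) and ATF6. IRE1 splices Xbp1 mRNA to give an active transcription factor, ATF6 is cut to release another, and both act on genes for chaperones, folding enzymes and the machinery that sends misfolded protein out for degradation. PERK shares with GCN2 (Eif2ak4), PKR (Eif2ak2) and HRI (Eif2ak1) the phosphorylation of the translation factor eIF2, which lowers protein synthesis in general while favouring translation of ATF4 and its target genes, and this branch is called the integrated stress response. Neutrophils make their granule proteins in the ER while they mature in the marrow.

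Expression was given as TPM, which takes out gene length and scales each library to a fixed total, so levels can be set side by side between genes but hold no read counts. Total reads per library ranged from 249841492 to 340580330. Lrp5, the targeted gene, stood at 1.12, 1.31 and 1.42 TPM in WT replicates 1 to 3 and at 1.68, 1.77 and 2.07 TPM in the libraries labelled LRP5-KO. It was thus not lower in any library labelled LRP5-KO (0.31 ± 0.094 on the log2 scale, standard error, adjusted p = 0.136 by limma), and the directions given here rest on the labels. Lyz2, the gene that carries Cre, was 13792 ± 375 TPM in the libraries labelled LRP5-KO and 25963 ± 1039 TPM in WT (SD, n = 3 each, limma adjusted p = 0.0035). The neutrophil markers summed to between 393569 and 443643 TPM in the 6 libraries, with Ly6g at 920.2 to 1104 TPM and Itgam, which encodes CD11b, at 645 to 782 TPM. The share of ribosomal reads was 1.20%, 1.30% and 3.30% for WT replicates 1 to 3, and 2.69% to 2.98% for the libraries labelled LRP5-KO. Over the 8769 genes with a transcript sequence, the deviation of a library from the mean of all libraries had a Spearman correlation with GC content of -0.61, -0.43 and 0.37 in WT replicates 1 to 3 and of 0.33 to 0.44 in the libraries labelled LRP5-KO. WT replicate 3 was therefore closer to the libraries labelled LRP5-KO than to the other WT libraries in both measures.

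Expression of the members was compared on the log2(TPM + 1) scale, which understates differences of low genes, with limma, over the 9775 genes that averaged 1 TPM or more. Of the 36 members, 35 passed this filter. The exception was Eif2ak4, the amino acid sensor GCN2, at 0.43 to 0.78 TPM in the 6 libraries. No member passed an adjusted p of 0.05, against a background of 0.532% of all genes tested, 0.266% in either direction. At an unadjusted p under 0.05 there were 11 members, or 31.4% of those tested, against 23.5% of all genes. Of these, 8 members were lower in the libraries labelled LRP5-KO (background 9.12%) and 3 were higher (background 14.4%). The 3 libraries of each label did not overlap for 14 members, or 40.0%, against 29.7% of all genes, with 10 members lower (background 12.3%) and 4 higher (background 17.4%). The median log2 fold change was -0.055 over the members and 0.040 over all genes tested.

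**Figure D1:**
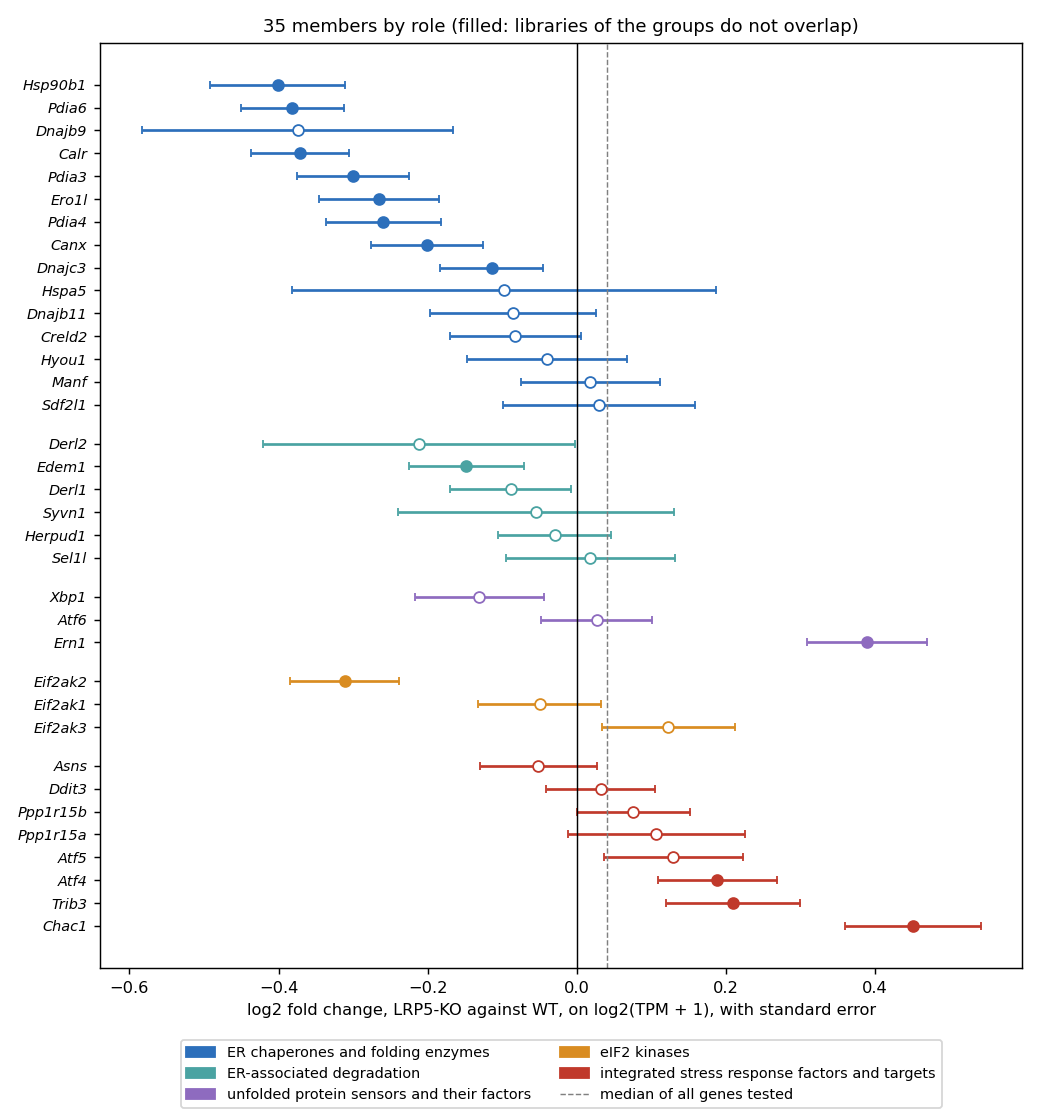
Log2 fold change of the 35 members tested, on log2(TPM + 1), libraries labelled LRP5-KO against WT, with the standard error from limma (n = 3 libraries each), grouped and coloured by role; filled points mark members whose 3 libraries of each label do not overlap, and the dashed line marks the median of all genes tested, 0.040. Chaperones and folding enzymes lie mostly left of 0, down to -0.40 for Hsp90b1, and factors and targets of the integrated stress response mostly right, up to 0.45 for Chac1.

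The largest group of members was that of ER chaperones and folding enzymes, and its members were mostly lower in the libraries labelled LRP5-KO. Of the 15 genes tested, 13 had a negative log2 fold change, 7 of them at an unadjusted p under 0.05 (9.12% of all genes were lower at that p) and 8 without overlap between the labels (12.3% of all genes). None was higher at that p. The median log2 fold change of the group was -0.20. Summed over the group, expression was 989, 795 and 748 TPM in WT replicates 1 to 3 and 668, 738 and 684 TPM in the libraries labelled LRP5-KO, so the sums did not overlap between the labels.

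Calr and Canx encode calreticulin and calnexin, the lectin chaperones that hold newly made glycoproteins. Calr was measured at 152, 142 and 139 TPM in WT replicates 1 to 3 and at 109, 109 and 115 TPM in the libraries labelled LRP5-KO. Every library labelled LRP5-KO was below every WT library, a log2 fold change of -0.37 (standard error 0.066, adjusted p = 0.0648 by limma). Canx was measured at 34.99, 32.6 and 31.1 TPM in WT and at 27.3, 28.4 and 29.7 TPM in the libraries labelled LRP5-KO. The labels did not overlap for Canx either, with a smaller difference of -0.20 on the log2 scale (standard error 0.075, adjusted p = 0.176).

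Pdia3 (ERp57) is the disulfide isomerase that works with calnexin and calreticulin, and Pdia4 and Pdia6 are further disulfide isomerases of the ER. Pdia3 was 121, 117 and 104 TPM in WT and 93.4, 93.3 and 90.2 TPM in the libraries labelled LRP5-KO. Pdia6 was 23.1, 23.7 and 23.6 TPM in WT and 17.0, 17.6 and 18.7 TPM in the libraries labelled LRP5-KO. Pdia4 was expressed at a lower level, 5.08, 4.76 and 5.34 TPM in WT and 3.99, 3.98 and 4.20 TPM in the libraries labelled LRP5-KO. For all 3 genes the libraries of the labels did not overlap. The log2 fold changes were -0.30 for Pdia3 (standard error 0.075, adjusted p = 0.104), -0.38 for Pdia6 (standard error 0.069, adjusted p = 0.0648) and -0.26 for Pdia4 (standard error 0.077, adjusted p = 0.133). Ero1l, the oxidase that recharges disulfide isomerases, stood at 44.5, 41.4 and 38.0 TPM in WT and at 32.7, 34.4 and 35.3 TPM in the libraries labelled LRP5-KO. It too had no overlap between the labels (log2 fold change -0.27, standard error 0.081, adjusted p = 0.137).

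Hsp90b1 encodes GRP94, the HSP90 chaperone of the ER, known for folding integrins and Toll-like receptors. It was 92.3, 79.4 and 77.5 TPM in WT and 58.1, 63.4 and 66.1 TPM in the libraries labelled LRP5-KO. The difference of -0.40 was the most negative among the members (standard error 0.091, adjusted p = 0.0907), and the labels did not overlap. Dnajc3, the co-chaperone P58IPK, was 15.9, 14.9 and 15.0 TPM in WT and 13.9, 13.8 and 14.4 TPM in the libraries labelled LRP5-KO. Its libraries did not overlap between the labels, yet the difference was small, -0.11 on the log2 scale, and its unadjusted p was 0.140 (adjusted p = 0.349).

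Hspa5, which encodes BiP, the most widely used readout of the unfolded protein response, did not share this pattern. It was 231, 120.1 and 135 TPM in WT replicates 1 to 3 and 118, 205 and 127 TPM in the libraries labelled LRP5-KO. A single library of each label, WT replicate 1 and LRP5-KO replicate 2, stood far above the other two of its label, and the labels overlapped. The log2 fold change was -0.098 with a standard error of 0.28 (adjusted p = 0.860), so a difference of the size seen for Calr would not be told from the spread of the libraries. Dnajb9 (ERdj4), a BiP co-chaperone and a target of XBP1, was 194, 144 and 102 TPM in WT and 119.9, 104 and 104 TPM in the libraries labelled LRP5-KO. WT replicate 3 was at the level of the libraries labelled LRP5-KO and the other two WT libraries were above them (log2 fold change -0.37, standard error 0.21, adjusted p = 0.316).

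The remaining chaperones were Dnajb11, Creld2, Hyou1, Manf and Sdf2l1, all of them genes known to be induced by ER stress. Their log2 fold changes lay between -0.086 for Dnajb11 and 0.030 for Sdf2l1, with adjusted p from 0.594 to 0.924, and the labels overlapped for each. Dnajb11 was the highest, with a mean of 44.2 TPM in WT and 41.9 TPM in the libraries labelled LRP5-KO, and Sdf2l1 the lowest, at 1.98 and 2.01 TPM. The 7 chaperone members at an unadjusted p under 0.05 were thus Calr, Canx, Pdia3, Pdia4, Pdia6, Ero1l and Hsp90b1.

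**Figure D2:**
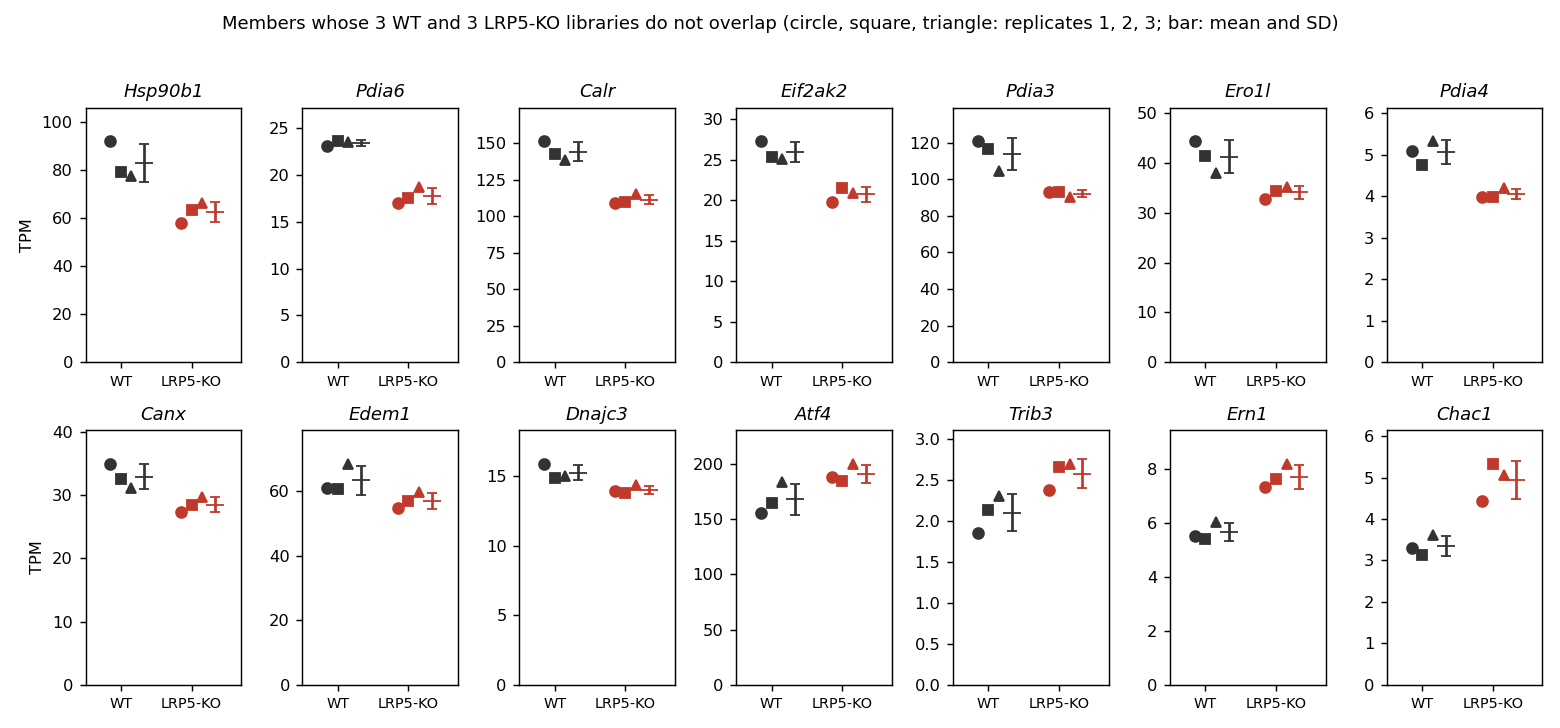
Expression in TPM of the 14 members whose 3 libraries of each label do not overlap, WT in black and LRP5-KO in red, with circle, square and triangle for replicates 1, 2 and 3 and a bar for the mean and SD; each panel has its own axis from 0. In 10 members, from Hsp90b1 to Dnajc3, all libraries labelled LRP5-KO are below all WT libraries, and in Atf4, Trib3, Ern1 and Chac1 all are above.

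Many genes of this group are known to be controlled through the ER stress response element, a composite site in the promoter read by ATF6 and XBP1 together with NF-Y, so the promoters of the members were read for it. The motif was searched as CCAAT followed, after any 9 bases, by CCACG, on both strands, in the window from 250 bases before to 50 bases after the RefSeq transcription start (GRCm38.p6). A match is a description of the sequence and not evidence of binding. The motif stood in 8 of the 32 listed genes with a promoter entry, which were Hspa5, Hsp90b1, Calr, Canx, Pdia6, Dnajc3, Creld2 and Syvn1, and in 37 of 27025 genes in all, or 0.137%. Hsp90b1 had 2 matches. No promoter entry was found for Hyou1, Ppp1r15b, Manf, Atf6 and Derl1.

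The promoters of 4 of the members with the smallest p among those with the element, and of Hspa5, which carries it and had an unadjusted p over 0.05, are printed 5′ to 3′ on the strand of the gene, as the 250 bases that end just before the transcription start, with the element in capitals. Calr is on the minus strand at chr8:84846932-84847181, Hsp90b1 on the minus strand at chr10:86705445-86705694, Pdia6 on the plus strand at chr12:17266339-17266588, Canx on the minus strand at chr11:50325674-50325923 and Hspa5 on the plus strand at chr2:34771840-34772089, all in GRCm38.p6. In Calr, and in the match of Hsp90b1 nearer to the start, the element lies on the opposite strand and so begins with CGTGG.
Calr: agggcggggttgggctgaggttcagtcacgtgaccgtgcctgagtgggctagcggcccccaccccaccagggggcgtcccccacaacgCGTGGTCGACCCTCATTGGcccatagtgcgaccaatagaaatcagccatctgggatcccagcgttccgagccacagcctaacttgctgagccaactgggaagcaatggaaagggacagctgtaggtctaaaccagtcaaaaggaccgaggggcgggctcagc
Hsp90b1: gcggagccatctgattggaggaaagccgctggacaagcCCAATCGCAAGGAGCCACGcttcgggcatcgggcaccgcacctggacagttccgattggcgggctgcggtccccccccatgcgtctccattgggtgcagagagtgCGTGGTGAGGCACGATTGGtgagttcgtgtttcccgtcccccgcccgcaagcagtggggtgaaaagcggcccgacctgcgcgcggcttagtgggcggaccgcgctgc
Pdia6: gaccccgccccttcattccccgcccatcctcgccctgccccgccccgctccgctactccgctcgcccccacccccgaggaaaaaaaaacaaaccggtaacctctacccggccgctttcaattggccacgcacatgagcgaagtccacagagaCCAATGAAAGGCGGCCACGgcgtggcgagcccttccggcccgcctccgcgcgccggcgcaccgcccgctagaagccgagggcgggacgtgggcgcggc
Canx: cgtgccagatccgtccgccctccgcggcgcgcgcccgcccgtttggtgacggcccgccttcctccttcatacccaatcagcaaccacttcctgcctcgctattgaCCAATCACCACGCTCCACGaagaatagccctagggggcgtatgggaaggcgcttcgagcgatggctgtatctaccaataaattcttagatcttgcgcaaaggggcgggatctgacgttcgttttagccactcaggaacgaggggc
Hspa5: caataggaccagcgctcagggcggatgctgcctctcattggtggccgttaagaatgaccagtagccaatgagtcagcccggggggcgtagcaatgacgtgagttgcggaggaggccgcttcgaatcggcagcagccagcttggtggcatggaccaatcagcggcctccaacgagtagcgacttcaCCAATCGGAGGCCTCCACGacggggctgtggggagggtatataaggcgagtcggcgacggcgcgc

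The element lay between positions -162 and -144 from the start in Calr, -145 and -127 in Canx, -98 and -80 in Pdia6 and -65 and -47 in Hspa5, and in Hsp90b1 at -212 to -194 and at -107 to -89. Members with the element were not alike in their differences between the labels. Of the 8 members with it, 4 (Calr, Hsp90b1, Pdia6 and Canx) were lower at an unadjusted p under 0.05, and Hspa5, Dnajc3, Creld2 and Syvn1 were not. At that p, 9.12% of all genes were lower. Among the 9775 genes tested, 12 had the element, with a median log2 fold change of -0.090. The 4 of these that were not members were Hnrnpa3, Adcy3, Alg12 and Pan2, with a median of 0.087 and none at an unadjusted p under 0.05. The related ER stress response element II, searched as ATTGG and CCACG with any 1 base between them, on both strands, stood in Dnajb11 and Herpud1 and in 0.0444% of all genes. Neither member differed between the labels beyond the spread of the libraries, with log2 fold changes of -0.086 and -0.030.

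**Figure D3:**
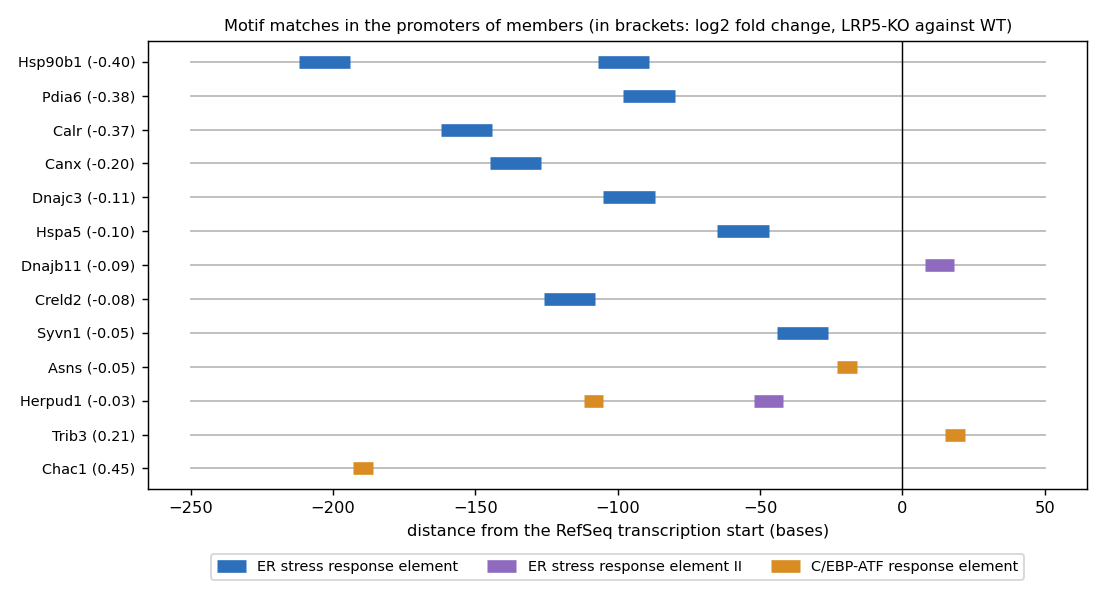
Position of the 3 motifs searched in the promoters of the 13 members that hold at least 1 of them, in bases from the RefSeq transcription start, ordered by the log2 fold change given in brackets (LRP5-KO against WT, on log2(TPM + 1)). The ER stress response element lies before the start in 8 members whose log2 fold changes run from -0.40 to -0.055, and the C/EBP-ATF response element stands in Asns, Herpud1, Trib3 and Chac1.

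The genes of ER-associated degradation, which draw misfolded proteins out of the ER for the proteasome, showed no difference at an unadjusted p under 0.05 in any of the 6 members tested. Their median log2 fold change was -0.072, with 5 of 6 negative. Edem1, a lectin that hands misfolded glycoproteins to this pathway, was 61.0, 60.7 and 68.5 TPM in WT and 54.7, 56.8 and 59.6 TPM in the libraries labelled LRP5-KO. The libraries of the labels did not overlap, but lay close to each other (log2 fold change -0.15, standard error 0.077, adjusted p = 0.285). Derl2, a channel protein of the same pathway, had a log2 fold change of -0.21 with a standard error of 0.21 and overlapped, with LRP5-KO replicate 3 at 17.9 TPM and the other two libraries labelled LRP5-KO at 9.99 and 10.7 TPM. Derl1, the ubiquitin ligase Syvn1 (HRD1), its partner Sel1l and the membrane protein Herpud1 had log2 fold changes between -0.089 and 0.018, with adjusted p from 0.534 to 0.940. Selenok, the gene listed as Selk and a selenoprotein of the ER membrane, had a log2 fold change of -0.066 (standard error 0.077, adjusted p = 0.625).

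Of the sensors and their transcription factors, Ern1 was higher in the libraries labelled LRP5-KO, while Atf6 and Xbp1 overlapped. Ern1, which encodes IRE1, was 5.53, 5.43 and 6.04 TPM in WT replicates 1 to 3 and 7.34, 7.64 and 8.22 TPM in the libraries labelled LRP5-KO. All libraries labelled LRP5-KO were above all WT libraries (log2 fold change 0.39, standard error 0.080, adjusted p = 0.0781). In NCBIM37, the mm9 build named for the alignment, Ern1 spans 106255964 to 106349166 on the minus strand of chromosome 11. Xbp1, the transcript that IRE1 splices, was 52.7, 56.1 and 63.3 TPM in WT and 49.96, 51.5 and 55.1 TPM in the libraries labelled LRP5-KO. WT replicate 1 lay within the range of the libraries labelled LRP5-KO, and the log2 fold change was -0.13 (standard error 0.087, adjusted p = 0.390). TPM gives the sum of the spliced and unspliced forms of Xbp1, so the share that was spliced was not measured. Atf6 was 7.74, 7.17 and 7.22 TPM in WT and 7.30, 7.41 and 7.88 TPM in the libraries labelled LRP5-KO, with a log2 fold change of 0.026 (standard error 0.074, adjusted p = 0.856).

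The eIF2 kinases differed in direction among themselves. Eif2ak2, which encodes PKR, a kinase switched on by double-stranded RNA and induced by interferon, was 27.3, 25.4 and 25.1 TPM in WT and 19.7, 21.5 and 20.9 TPM in the libraries labelled LRP5-KO. The labels did not overlap, and the log2 fold change was -0.31 (standard error 0.073, adjusted p = 0.0973). The gene spans 79251904 to 79281913 on the minus strand of chromosome 17 (NCBIM37). Eif2ak3, the ER sensor PERK, was 27.4, 28.0 and 31.9 TPM in WT and 29.5, 31.8 and 34.0 TPM in the libraries labelled LRP5-KO. The labels overlapped because WT replicate 3 lay above 2 of the libraries labelled LRP5-KO (log2 fold change 0.12, standard error 0.089, adjusted p = 0.432). Eif2ak1, the haem-regulated kinase HRI, was 28.7, 26.6 and 30.8 TPM in WT and 26.2, 27.5 and 29.2 TPM in the libraries labelled LRP5-KO, with overlap (log2 fold change -0.050, adjusted p = 0.741). Eif2ak1, Eif2ak2 and Eif2ak3 thus stood at like levels in WT, with means of 28.7 ± 2.1, 25.9 ± 1.2 and 29.1 ± 2.4 TPM (SD, n = 3), far above Eif2ak4 at 0.59 ± 0.17 TPM (SD, n = 3). Eif2ak4 was 0.43, 0.56 and 0.78 TPM in WT and 0.60, 0.65 and 0.64 TPM in the libraries labelled LRP5-KO and was not tested.

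The transcription factors and targets downstream of eIF2 were mostly higher in the libraries labelled LRP5-KO, with a median log2 fold change of 0.12 and 7 of 8 positive. Among them 2 had an unadjusted p under 0.05, both higher (14.4% of all genes were higher at that p), and 3 had no overlap between the labels, all higher (17.4% of all genes). Over all genes, too, higher was the commoner direction. Chac1, which degrades glutathione and is a target of ATF4, was 3.30, 3.14 and 3.61 TPM in WT and 4.45, 5.34 and 5.05 TPM in the libraries labelled LRP5-KO. Its log2 fold change of 0.45 was the highest among the members (standard error 0.091, adjusted p = 0.0765). Atf4 itself, at 155, 165 and 183 TPM in WT and 188, 184 and 200.2 TPM in the libraries labelled LRP5-KO, was the most abundant of these genes. WT replicate 3 came close to the lowest library labelled LRP5-KO, so the labels were only just apart (log2 fold change 0.19, standard error 0.080, adjusted p = 0.210). Trib3, a pseudokinase induced by ATF4 and CHOP, was 1.86, 2.13 and 2.31 TPM in WT and 2.38, 2.65 and 2.70 TPM in the libraries labelled LRP5-KO, again without overlap (log2 fold change 0.21, standard error 0.090, unadjusted p = 0.0504).

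Ddit3, which encodes CHOP, the factor tied to cell death under lasting stress, was 55.3, 48.5 and 49.7 TPM in WT and 52.3, 52.1 and 52.4 TPM in the libraries labelled LRP5-KO. The libraries labelled LRP5-KO lay inside the range of the WT libraries (log2 fold change 0.032, standard error 0.073, adjusted p = 0.819). The remaining genes of the branch also overlapped between the labels. These were Atf5, the eIF2 phosphatase subunits Ppp1r15a (GADD34) and Ppp1r15b (CReP), and the asparagine synthetase gene Asns. Their log2 fold changes lay between -0.052 for Asns and 0.13 for Atf5, with adjusted p from 0.430 to 0.718.

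ATF4 binds the C/EBP-ATF response element, a joint site of ATF and C/EBP proteins, and Chac1 is shown here as the member with the highest log2 fold change. Its promoter, the 250 bases before the start on the plus strand at chr2:119350992-119351241 (GRCm38.p6, RefSeq), holds the element on the opposite strand at positions -193 to -186, in capitals.
Chac1: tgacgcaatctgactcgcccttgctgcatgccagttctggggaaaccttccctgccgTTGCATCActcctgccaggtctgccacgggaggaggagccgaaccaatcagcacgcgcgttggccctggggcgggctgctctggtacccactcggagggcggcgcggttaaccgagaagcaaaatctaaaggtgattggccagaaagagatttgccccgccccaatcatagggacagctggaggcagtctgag

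The element was searched as TGATGNAA on both strands. It stood in Chac1, Trib3, Asns and Herpud1 among the 32 listed genes with a promoter entry, and in 1219 of 27025 genes in all, or 4.51%. Of the 199 tested genes with the element, 30 were higher and 21 lower at an unadjusted p under 0.05, against 14.4% and 9.12% of all genes. Their median log2 fold change was 0.046, close to the 0.040 of all genes. Chac1 was higher without overlap and carried the element, while Asns carried it and was 20.7, 20.1 and 23.0 TPM in WT and 19.7, 20.7 and 20.95 TPM in the libraries labelled LRP5-KO, with overlap.

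The wider pathway was described with 6 lists of other genes. None of their genes passed a limma adjusted p of 0.05. Of 22 listed ATF4-regulated genes of amino acid supply and stress, 13 were tested. Of these 11 were positive, the commoner direction of the members downstream of eIF2 too. Their median was 0.16, against 0.040 over all genes. With WT replicate 3 as the only WT library it was 0.078, against -0.0065 over all genes. At an unadjusted p under 0.05, 5 were higher and 0 lower, against 14.4% and 9.12% of all genes. The labels did not overlap for 3, all higher, or 23.1%, against 29.7% of all genes. The 3 with the smallest p were Slc7a11, the cystine transporter, at 14.6 ± 0.67 TPM in WT and 17.6 ± 0.23 TPM in the libraries labelled LRP5-KO, the transcription factor Atf3 at 42.4 ± 3.0 and 50.6 ± 3.3 TPM, and Cebpb, a C/EBP transcription factor, at 199 ± 41 and 258 ± 12 TPM (SD, n = 3 each). Their log2 fold changes were 0.25, 0.25 and 0.39, with adjusted p of 0.120, 0.149 and 0.159. The labels overlapped for Cebpb, at 245.3 TPM in WT replicate 3 and 244.7 TPM in LRP5-KO replicate 1. Its log2 fold change was 0.072 with WT replicate 3 as the only WT library. The list of subunits of eIF2, of its exchange factor eIF2B and of partners of GCN2 had a median of -0.00018 over 11 genes. Only Gcn1l1, the partner of GCN2, had an unadjusted p under 0.05 in that list, at 2.71 ± 0.49 TPM in WT and 4.01 ± 0.46 TPM in the libraries labelled LRP5-KO (SD, n = 3 each, log2 fold change 0.44, adjusted p = 0.120).

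The other ER lists had medians nearer to 0 than that of the chaperone members, -0.20. The other ER folding enzymes, 14 genes, had a median of 0.039 on the log2 scale, 2 higher and 2 lower at an unadjusted p under 0.05. At that p, 14.4% of all genes were higher and 9.12% lower, the shares to set beside the counts of these lists. Erp44, which retains Ero1 enzymes in the early secretory pathway, was lower in the libraries labelled LRP5-KO (log2 fold change -0.26, adjusted p = 0.133), and the glycoprotein-handling genes Mogs and Uggt1 were higher (0.29 and 0.27, adjusted p = 0.155 and 0.160). Genes of the translocon, signal peptidase and oligosaccharyltransferase, which bring proteins into the ER and process them, had a median of -0.0012 over 24 genes, with 5 lower and 1 higher. Tram1 and Ssr3, both of the translocon, were lower (-0.35 and -0.38), and Ssr4, of the same complex as Ssr3, was higher (0.32). The other genes of ER-associated degradation had a median of -0.088 over 20 genes, with 5 lower and 1 higher. The 3 with the smallest p there were the ubiquitin-conjugating enzymes Ube2j1 (-0.29) and Ube2g2 (-0.86) and the ubiquitin ligase Rnf139 (-0.38), with adjusted p from 0.104 to 0.149. Ube2g2 was 11.6, 25.8 and 26.3 TPM in WT and 10.4, 10.1 and 11.3 TPM in the libraries labelled LRP5-KO (standard error 0.28). WT replicate 1 was thus near the level of the libraries labelled LRP5-KO. The relatives of ATF6, their proteases and the partners of IRE1 had a median of -0.014 over 11 genes. In that list Map3k5, the kinase ASK1 that acts downstream of IRE1, was higher (0.39, adjusted p = 0.105) and Creb3l1 lower (-0.32, adjusted p = 0.129).

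Genes of neutrophil maturation and the reads of the libraries also differed with the labels, and their part in the results above was not tested. In bulk RNA, fewer cells of a type and less RNA per cell cannot be told apart. Of 17 immature neutrophil genes, 8 were higher with the LRP5-KO label at an unadjusted p under 0.05 and 0 were lower, against 14.4% and 9.12% of all genes. By sign, 15 were positive and 2 negative, Ngp at -0.14 and Stmn1 at -0.052. The median log2 fold change was 0.20, or 0.11 once trends with GC content and length were removed. The immature genes of smallest p were Camp at 0.35, Ms4a3 at 0.32 and the primary granule protease Elane at 0.32. The summed level of this list was 72462 to 79760 TPM in WT and 75454 to 79540 TPM in the libraries labelled LRP5-KO, so the sums overlapped. Of 15 mature neutrophil genes, 6 were lower and 0 higher at an unadjusted p under 0.05, against 9.12% and 14.4% of all genes. By sign, 10 were negative and 5 positive, among them Slpi at 0.20 and Csf3r at 0.16. The median was -0.15, or -0.092 once the same trends were removed. Sums were 39579 to 44184 TPM in WT and 38656 to 40062 TPM in the libraries labelled LRP5-KO. The gene Cxcl2, a neutrophil chemokine of that list, fell by 0.48 on the log2 scale (limma adjusted p = 0.0371), and Mmp8 and Wfdc17 stood at -0.41 and -0.35. The immature and the mature list share 0 genes with each other, but 3 and 4 genes with the neutrophil markers.

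Plasma cells are rich in ER chaperones, so their markers were read too. The B and plasma cell markers summed to 214 to 241 TPM in WT and 215 to 232 TPM in the libraries labelled LRP5-KO. Of their 8 tested genes, 0 had an unadjusted p under 0.05, against 23.5% of all genes. The immunoglobulin genes Ighm and Igkc, at 106 to 122 and 87.5 to 109.9 TPM, overlapped between the labels. Jchain, the joining chain of secreted antibody, was 7.97, 3.97 and 7.74 TPM in WT and 8.39, 8.04 and 8.39 TPM in the libraries labelled LRP5-KO, higher without overlap (log2 fold change 0.34, standard error 0.21, adjusted p = 0.362). The other plasma cell genes of the list, Sdc1, Mzb1, Tnfrsf17, Irf4 and Prdm1, were each below 1 TPM in all 6 libraries. Monocyte and macrophage markers summed to 616 to 782 TPM in WT and 687 to 748 TPM in the libraries labelled LRP5-KO. Most of that sum was Ly6c2, at 513 to 664 TPM in the 6 libraries. Adgre1, which encodes F4/80, alone of the 7 tested had an unadjusted p under 0.05 (log2 fold change 0.36). Erythroid markers summed to at most 14.4 TPM, and of the 2 tested Hba-a1, an alpha globin gene, was lower without overlap (log2 fold change -0.31, adjusted p = 0.155). The other, the alpha globin gene Hba-a2, went the other way and overlapped (log2 fold change 0.094, limma adjusted p = 0.769). With trends with GC content and length removed, Hba-a1 stood at -0.46 (adjusted p = 0.0340) and Hba-a2 at -0.080. Intronic reads made up 8.46 ± 0.62% of reads in WT and 10.9 ± 0.31% in the libraries labelled LRP5-KO (SD, n = 3 each), without overlap.

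Since WT replicate 3 stood apart from the other WT libraries, the members were also compared without it and with it as the only WT library. Without WT replicate 3, 10 of the 35 members passed an adjusted p of 0.05, against a background that was itself 19.6% of all genes. Lower were Calr, Dnajb9, Eif2ak2, Ero1l, Hsp90b1, Pdia3 and Pdia6, 7 members against a background of 7.57%, and higher were Atf4, Chac1 and Ern1, 3 members against a background of 12.1%. With WT replicate 3 as the only WT library, none passed. The log2 fold changes there were -0.32 for Calr, -0.39 for Pdia6, -0.31 for Hsp90b1, 0.31 for Ern1 and 0.37 for Chac1. Their libraries did not overlap between the labels, so the direction could not turn there. The log2 fold changes of Pdia3 (-0.18), Ero1l (-0.15) and Atf4 (0.058) were nearer to 0 and that of Dnajb9 was 0.10.

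The members differed in GC content, from 38.3% in the Dnajb9 transcript to 61.7% in that of Atf5, and so the trends of each library with GC content and length were also removed. In that comparison 4 members passed an adjusted p of 0.05, against a background of 4.3%: Calr (-0.39), Hsp90b1 (-0.31), Pdia6 (-0.38) and Ern1 (0.28). Among the other members without overlap between the labels, 5 came nearer to 0 by over 1.5 times: Canx (-0.071, adjusted p = 0.349), Ero1l (-0.12), Dnajc3 (-0.026), Atf4 (0.11) and Trib3 (0.092). The median of the chaperones was then -0.16, and that of the factors and targets downstream of eIF2 was 0.016 rather than 0.12. With the libraries scaled by median ratios, which moved the median of all genes from 0.040 to -0.022, Calr and Pdia6 passed against a background of 0.849%. With TPM rescaled without mitochondrial and the 20 most abundant genes, which moved that median to 0.069, Ern1 passed against a background of 0.986%. In every comparison made, all 14 members without overlap between the labels kept their direction, as did some with overlap, such as Xbp1. The share of all genes that did so was not counted. Log2 fold changes ran from -0.44 to -0.32 for Calr, from -0.45 to -0.35 for Pdia6 and from -0.47 to -0.31 for Hsp90b1. They ran from 0.28 to 0.44 for Ern1 and from 0.34 to 0.55 for Chac1. Others came nearer to 0, such as Dnajc3 at -0.026 and Atf4 at 0.058.

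**Figure D4:**
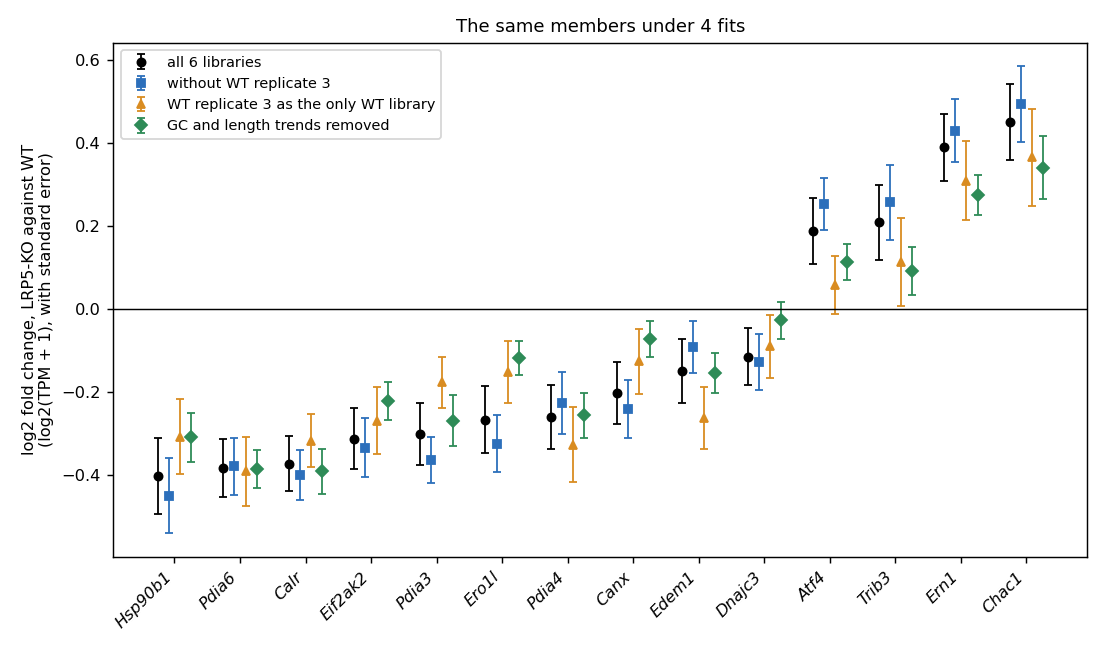
Log2 fold change with standard error of the 14 members whose libraries do not overlap between the labels, LRP5-KO against WT on log2(TPM + 1), from all 6 libraries (black circles), without WT replicate 3 (blue squares), with WT replicate 3 as the only WT library (orange triangles) and with GC and length trends removed (green diamonds). Calr, Pdia6 and Hsp90b1 lie at -0.31 or lower in all 4, while Atf4 stands at 0.058 and 0.11 in the last pair.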

How the data were processed

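Bone marrow neutrophil RNA was analysed in 6 libraries, grouped by the genotype in their labels (WT and LRP5f/f/Lyz2Cre+, n = 3 each). The authors aligned reads to mm9, named DESeq2 for quantification and deposited TPM, whose depth cannot be recovered; how TPM was computed is not given in the sources used here. The deposited read summary gave counts of reads per library and shares of reads in percent. Its reads were 99.37% to 99.51% on the correct strand.

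For the 9775 genes that averaged 1 TPM or more, log2(TPM + 1) was fitted over all 6 libraries with limma (3.58.1, R 4.3.3), using its trend option and no covariates, and p-values were adjusted by Benjamini-Hochberg. The members are part of that fit. The members and lists were chosen with earlier results of these data known. Per-library values are given for members with an unadjusted p under 0.05 or without overlap, and for the eIF2 kinases, Atf4, Ddit3, Atf6, Ern1, Xbp1 and Hspa5; in wider lists up to 3 genes of smallest p under 0.05 are named, and other genes named were chosen after their values were seen. Single shares were compared by exact permutation, two-sided. The fit was tested on simulated data. Promoters came from RefSeq (GRCm38.p6), matched by symbol or synonym for 32 of 37 listed genes; GC content and length from GENCODE M1 transcripts (89.7% of genes tested, loess span 0.5). In all, 16 alternatives were tried: pseudocount 0.1, filters, scalings, no trend, replicate block, each library left out, WT replicate 3 alone, ribosomal RNA share as a covariate, and GC and length trends removed. The replicate numbers were checked as pairs by the correlation of same-numbered deviations (0.23, -0.0075 and 0.13) and were not treated as pairs.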

Additional observations from a re-analysis of the deposited data

Results flagged for a closer look

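The share of intronic reads, which enters no comparison of gene expression, was 10.9 ± 0.31% in the libraries labelled LRP5-KO and 8.46 ± 0.62% in WT (SD, n = 3 each). It is listed because a measure outside the expression table stood above the control libraries. All 3 libraries labelled LRP5-KO, at 10.6% to 11.2%, were above all WT libraries, at 7.78% to 9.0%. The exact permutation test gave p = 0.1, two-sided, the smallest that 3 libraries against 3 allow. Reads in coding sequence and untranslated regions moved the other way, at 82.2 ± 0.32% and 85.6 ± 1.6%. Whether intronic reads bear on the values of the stress genes was not tested.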

How the results depend on the processing

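The number of genes called depended on the processing, both over the whole table and among the members. Against 52 genes, 3 were called without a filter, 29 at a mean of at least 5 TPM, 83 with median-ratio scaling (30 higher, 53 lower, against 26 and 26), 96 with rescaled TPM (69 higher, 27 lower), 6 with WT replicate 3 as the only WT library (assumed to vary like the other group), 6 with the ribosomal RNA share as a covariate and 377 with GC and length trends removed; leaving out 1 library gave 2 to 1920, the highest without WT replicate 3. The count of members called was 0, and became 2 with median-ratio scaling, 1 with rescaled TPM, 4 with GC and length trends removed and 0 to 10 without 1 library. In the wider lists, heat shock genes included, it was 0, and became 1 with WT replicate 3 alone, 3 with GC and length trends removed and 0 to 23 without 1 library, the highest without WT replicate 3. The cause was not tested.

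The median log2 fold change of the members (-0.055) was -0.124 with median-ratio scaling, -0.125 with WT replicate 3 alone, -0.115 with the ribosomal covariate and -0.096 to -0.017 without 1 library. With WT replicate 3 alone, the medians were -0.153 for eIF2 kinases, 0.032 for factors and targets downstream of eIF2, -0.14 for chaperones and -0.173 for ER-associated degradation. With median-ratio scaling they were -0.038 for the sensors and -0.272 for chaperones, and with GC and length trends removed 0.016 downstream of eIF2. Without 1 library, chaperones ranged from -0.26 to -0.15 and ER-associated degradation from -0.17 to -0.026.

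Of the 20 members for which every alternative was tabulated by name, those whose sign turned were near 0 or had a wide spread. Eif2ak1 ranged from -0.10 to 0.0012 without 1 library. Eif2ak3 was -0.0078 with WT replicate 3 alone. Ddit3 was -0.040 with median-ratio scaling, -0.088 with GC and length trends removed and -0.0051 to 0.088 without 1 library. Atf6 was -0.038 with median-ratio scaling and -0.0030 to 0.057 without 1 library. Hspa5 was 0.10 with WT replicate 3 alone, 0.032 with the ribosomal covariate and -0.35 to 0.19 without 1 library. Over these 20 members and all alternatives, 290 values kept direction and side of the threshold, 16 newly passed it and 11 reversed. No member passed in the main fit, so keeping the side of the threshold meant not passing. The filters, the trend option and the block left the log2 fold change unchanged by design. Leaving out libraries could not turn it for members without overlap. The 290 is therefore not a measure of stability.

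With the replicate number as a block, 4 genes were called in place of 52, and 0 members. Same-numbered libraries correlated by 0.23, -0.0075 and 0.13. WT replicates 1 and 3 correlated best with the LRP5-KO library of their own number, and WT replicate 2 with LRP5-KO replicate 3 (0.022). These values do not settle whether the numbers mark pairs. TPM keeps no depth, so counting error could not be given for the low members (Chac1, Trib3, Sdf2l1 and Eif2ak4), and 3 libraries a label limit single genes.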

Other observations

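Heat shock genes of the cytosol and mitochondria, which answer to unfolded protein outside the ER, were read as a further list of chaperones. Of 10 genes tested, 0 were higher and 1 lower at an unadjusted p under 0.05, against 14.4% and 9.12% of all genes. By sign, 5 were positive and 5 negative, and the median log2 fold change was -0.048. The gene that was lower was Hspa8, the constitutive HSP70 of the cytosol, at 317 ± 26 TPM in WT and 245 ± 22 TPM in the libraries labelled LRP5-KO (SD, n = 3 each, log2 fold change -0.37, limma adjusted p = 0.102). The summed level of the list, Hspa8 included, was 725 to 792 TPM in WT and 613 to 692 TPM in the libraries labelled LRP5-KO, without overlap. Hspa8 alone was 300 to 347 TPM in WT and 220 to 258 TPM in the libraries labelled LRP5-KO. The sum thus does not describe the other genes of the list.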
